A study of Homo sapiens with 19 samples.

Results

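The 10 imprinted genes H19, IGF2, KCNQ1OT1, PEG10, MEST, SNRPN, GNAS, MEG3, PLAGL1 and PEG3 were examined in peak lists of H3K27ac, histone H3 acetylated at lysine 27, from 4 leukaemia cell lines. They were picked by name as well-known imprinted loci and located with the GENCODE v44 annotation of hg38, and they are 10 of 38899 annotated protein-coding and long non-coding RNA (lncRNA) genes. Chromatin immunoprecipitation with sequencing (ChIP-seq) had been carried out on HL-60 and Molm13 cells without any transduction, and on OCI-AML3 and K562 cells that expressed catalytically dead Cas9 fused to the KRAB repressor and mCherry, with a BFP-marked guide vector that held no guide. HL-60, Molm13 and OCI-AML3 are lines from acute myeloid leukaemia (AML), and K562 is a line from chronic myeloid leukaemia with erythroid and megakaryocytic features. There was 1 H3K27ac library per line, so no spread between replicates could be given, no test between lines was made, and the line and the transduction cannot be told apart. The series holds 19 samples in 16 groups, and 14 samples were not analysed here.

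H3K27ac marks active promoters and enhancers. Imprinted genes are expressed mainly from the allele inherited from one parent. DNA methylation placed in the egg or sperm at an imprinting control region is kept on that allele, and the zinc finger protein ZFP57 is known for keeping it. Many of these genes act in fetal growth and are quiet in most adult blood cells. The peak lists do not separate the parental alleles, so a peak shows acetylation on at least some copies of a locus, not on which parental copy.

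A transcription start site (TSS) here is the 5′ end of any GENCODE transcript of a gene, the canonical TSS is that of the transcript tagged as canonical, and TSSs less than 500 bp apart were joined into clusters. The 10 genes had 196 distinct TSSs in 61 clusters. A TSS was called marked when a peak lay within 500 bp of it. The strength of a peak is its fold enrichment over the local background as the authors deposited it. Since each list was scaled on its own, the percentile of a peak's fold enrichment among all peaks of the same line is also given.

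The promoters printed here are those on which the comparison of marked and unmarked start sites turned. Each line gives the 250 bases before a start in GRCh38.p14, from RefSeq, written 5′ to 3′ on the strand of the gene, and capitals mark CpG dinucleotides, the sites of DNA methylation. RefSeq promoter entries were found for 6 of the 10 genes. For MEST, the start at chr7:130486097-130486346 (+ strand) lay in a cluster marked in 3 lines, and the canonical start at chr7:130491835-130492084 (+ strand) was marked in none:

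MEST upstream start: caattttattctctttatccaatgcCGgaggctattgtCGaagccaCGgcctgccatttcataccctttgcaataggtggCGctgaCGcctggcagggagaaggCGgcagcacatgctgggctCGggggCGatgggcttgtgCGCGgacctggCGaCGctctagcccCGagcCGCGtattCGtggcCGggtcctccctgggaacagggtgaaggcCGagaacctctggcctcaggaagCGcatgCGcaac

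MEST canonical start: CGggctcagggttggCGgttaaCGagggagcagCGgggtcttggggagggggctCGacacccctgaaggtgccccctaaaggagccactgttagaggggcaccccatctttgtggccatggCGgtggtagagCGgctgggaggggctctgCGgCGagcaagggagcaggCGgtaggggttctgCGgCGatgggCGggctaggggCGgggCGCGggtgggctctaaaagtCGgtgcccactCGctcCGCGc

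For PLAGL1, the distal start at chr6:144064600-144064849 (- strand) was marked in all 4 lines, and the canonical start at chr6:144008260-144008509 (- strand) in none:

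PLAGL1 distal start: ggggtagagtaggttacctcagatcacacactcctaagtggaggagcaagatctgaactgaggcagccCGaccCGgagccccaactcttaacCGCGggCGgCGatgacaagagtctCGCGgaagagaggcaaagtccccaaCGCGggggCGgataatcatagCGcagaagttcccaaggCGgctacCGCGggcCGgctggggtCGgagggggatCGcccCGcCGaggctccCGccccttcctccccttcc

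PLAGL1 canonical start: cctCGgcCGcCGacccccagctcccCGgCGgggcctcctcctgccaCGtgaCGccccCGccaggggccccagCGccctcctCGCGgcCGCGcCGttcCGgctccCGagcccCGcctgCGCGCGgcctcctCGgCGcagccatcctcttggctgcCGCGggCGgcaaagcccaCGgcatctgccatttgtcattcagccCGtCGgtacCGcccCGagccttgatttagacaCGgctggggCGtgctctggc

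The canonical SNRPN start at chr15:24954737-24954986 (+ strand) was marked in 2 lines, and a GNAS start just upstream of its canonical start, at chr20:58888930-58889179 (+ strand), had a peak within 500 bp in the 3 AML lines and none in K562, although K562 marked another start of its cluster:

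SNRPN canonical start: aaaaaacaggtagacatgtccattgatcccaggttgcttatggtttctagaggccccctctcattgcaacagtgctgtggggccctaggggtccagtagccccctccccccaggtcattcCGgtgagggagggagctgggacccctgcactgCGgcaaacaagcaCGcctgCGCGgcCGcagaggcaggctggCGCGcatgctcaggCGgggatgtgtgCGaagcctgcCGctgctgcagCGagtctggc

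GNAS upstream start: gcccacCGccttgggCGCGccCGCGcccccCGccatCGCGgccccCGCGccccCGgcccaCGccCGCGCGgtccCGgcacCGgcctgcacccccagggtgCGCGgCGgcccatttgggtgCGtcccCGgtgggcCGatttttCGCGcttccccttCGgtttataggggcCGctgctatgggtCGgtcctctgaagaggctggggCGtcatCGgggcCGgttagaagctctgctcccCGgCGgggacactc

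The H19 start at chr11:2001267-2001516 (- strand) and the MEG3 start at chr14:100825858-100826107 (+ strand) were marked in no line:

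H19 start: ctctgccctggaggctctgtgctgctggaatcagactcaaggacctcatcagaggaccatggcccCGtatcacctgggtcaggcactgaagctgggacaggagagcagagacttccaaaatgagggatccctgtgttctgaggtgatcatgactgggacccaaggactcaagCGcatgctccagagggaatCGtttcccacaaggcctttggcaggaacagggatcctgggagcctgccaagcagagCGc

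MEG3 start: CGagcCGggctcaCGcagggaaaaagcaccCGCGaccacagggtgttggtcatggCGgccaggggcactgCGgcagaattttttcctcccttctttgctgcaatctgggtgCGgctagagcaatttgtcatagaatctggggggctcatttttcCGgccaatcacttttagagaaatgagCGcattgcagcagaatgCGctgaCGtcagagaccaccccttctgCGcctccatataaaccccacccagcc

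Lists of the 4 lines held between 20814 peaks in HL-60 and 37606 in OCI-AML3, and the depth behind them was unknown. Promoters of 9 erythroid and megakaryocytic marker genes, 10 myeloid ones and 3 of the leukaemia HOX programme were used to check the labels. All 9 erythroid and megakaryocytic markers had a TSS peak in K562, against 3, 3 and 2 in HL-60, Molm13 and OCI-AML3. The myeloid markers had one at 7, 10 and 10 of 10 genes in these AML lines and at 5 in K562, and the HOX programme at 0, 3 and 3 of 3 genes and at 1 in K562. Of 4 epithelial markers, which should lack the mark in blood lines, 1 had a TSS peak in each AML line and 4 in K562. Of 4 lymphoid markers, 3 had one in HL-60 and 2 in each of the other lines. The part of these features in the results was not tested.

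Of the 10 imprinted genes, 5 had a peak at a TSS in HL-60, 3 in K562, 5 in Molm13 and 5 in OCI-AML3. Among all 38899 genes, the share with a TSS peak was 30.2% in HL-60, 39.5% in K562, 37.6% in Molm13 and 40.4% in OCI-AML3. Because 8 of the 10 genes have at least 10 distinct TSSs and so more chances of a peak, genes of that kind are the closer background. Of these 8 imprinted genes, 4 were marked in each AML line and 2 in K562, while the shares over all genes with at least 10 TSSs were 60.9% in HL-60, 72.8% in K562, 71.2% in Molm13 and 75.3% in OCI-AML3.

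Counted by TSS, 48 of the 196 (24.5%) were marked in HL-60, 30 (15.3%) in K562, 48 (24.5%) in Molm13 and 53 (27%) in OCI-AML3. Over all 219266 distinct TSSs the shares were 26.8%, 35.9%, 33.3% and 36% in the same order of lines. The Molm13 count depended on the window, since 26 of its TSSs lay inside a peak, against 33 in HL-60, 26 in K562 and 49 in OCI-AML3. Most marked TSSs belonged to 1 gene, GNAS, with 30, 16, 26 and 31 of them. By cluster, 11 of 61 were marked in HL-60, 8 in K562, 10 in Molm13 and 12 in OCI-AML3. In at least 1 line 15 clusters were marked, and in all 4 lines 5. No share over all genes was computed for clusters or for TSSs inside a peak.

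The canonical TSS was marked in 2 genes in HL-60, 2 in K562, 2 in Molm13 and 3 in OCI-AML3, while over all genes 27.9%, 36.9%, 34.9% and 37.8% of canonical TSSs were marked in that order. The canonical starts that carried a peak were those of KCNQ1OT1, GNAS and SNRPN. MEST, PLAGL1 and PEG3 had TSS peaks in at least 1 line, but at other starts of the gene, as the plot of start sites by line shows with open circles.

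**Figure D1:**
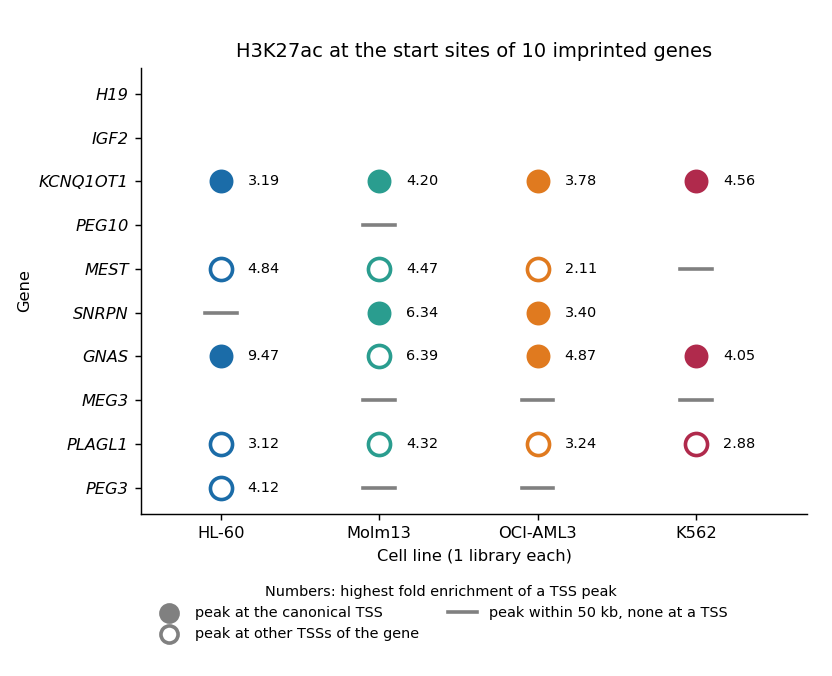
Marking of the 10 genes (rows) in the 4 lines (columns, 1 library each); filled circles stand for a peak at the canonical TSS, open circles for a peak at other TSSs of the gene, dashes for peaks within 50 kb but at no TSS, and the numbers give the highest fold enrichment of a TSS peak. KCNQ1OT1, GNAS and PLAGL1 have a circle in all 4 lines, MEST in the 3 AML lines, SNRPN in Molm13 and OCI-AML3 and PEG3 in HL-60, while the rows of H19 and IGF2 are empty.

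The genes fell into 5 patterns over the lines. KCNQ1OT1, GNAS and PLAGL1 were marked in all 4 lines, a pattern shared with 26.6% of all genes. MEST was marked in the 3 AML lines and not in K562, as were 717 genes (1.84%). SNRPN was marked in Molm13 and OCI-AML3, as were 1012 genes (2.6%). PEG3 was marked in HL-60 alone, as were 241 genes (0.62%). H19, IGF2, PEG10 and MEG3 had no TSS peak in any of the 4 lines, which held for 52.3% of all genes.

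Within 50 kb of the gene body, 6 of the 10 genes had a peak in HL-60, 5 in K562, 8 in Molm13 and 7 in OCI-AML3. Over all genes the shares were 68.2%, 69.8%, 75.2% and 75.3% in that order. These windows held 81 peaks, of which 12 were in HL-60, 24 in K562, 22 in Molm13 and 23 in OCI-AML3, and 26 of the 81 lay at a TSS of the gene. Overlapping peaks of the lines joined into 47 regions. Of the 10 regions at a TSS, 3 were present in all 4 lines and 4 in 1 line. Of the 37 regions away from a TSS, 2 were present in all 4 lines and 29 in 1 line. Regions over all genes were not counted in this way, so this split has no background to be set against.

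KCNQ1OT1 is a lncRNA transcribed antisense within KCNQ1 and known for silencing neighbouring genes on the paternal chromosome 11 (2597308 to 2700003, - strand). Its 6 TSSs form 1 cluster, which lies in the control region of that imprinted domain, and all 6 were marked in every line. The promoter peak was 850 bp wide with a fold enrichment of 3.19 in HL-60, 2570 bp and 4.56 in K562, 1094 bp and 4.20 in Molm13 and 1237 bp and 3.78 in OCI-AML3. In K562 it was wider than in the AML lines and reached further into the transcribed region, to 2698213. Within its own list the peak stood at the 31.2nd percentile of fold enrichment in HL-60, the 96.9th in K562, the 59.5th in Molm13 and the 76.2nd in OCI-AML3. So the promoter peak of KCNQ1OT1 was among the strongest of the K562 list and below the median of the HL-60 list, where its q-value was 0.0322 and the call was lost with a limit of q below 0.001.

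A second region of KCNQ1OT1, 41186 to 41472 bp upstream of the start (2741189 to 2742660), was present in Molm13, OCI-AML3 and K562 and not in HL-60. Its fold enrichment was 5.02 in Molm13, 2.35 in K562 and 2.71 in OCI-AML3. In Molm13 this upstream peak was stronger than the promoter peak, and in OCI-AML3 and K562 it was weaker. K562 had a further peak at 2747929 to 2748658, with a fold enrichment of 2.53.

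GNAS encodes the stimulatory G protein alpha subunit, which couples hormone receptors to adenylyl cyclase (chromosome 20, 58839718 to 58911192, + strand). The locus also makes the maternal NESP55 transcript and the paternal XLαs transcript from promoters far upstream, and a paternal transcript from exon A/B just upstream of the main promoter. GENCODE gives it 59 TSSs in 15 clusters. The 5 clusters from 51.7 to 38.2 kb upstream of the canonical start, on the NESP55 and XLαs side, were marked in none of the lines. In contrast, the cluster 3.01 kb upstream of the canonical start (58888413 to 58889227) and the cluster of the canonical start (58891302 to 58892333) were marked in all 4.

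The peaks over these GNAS clusters differed in shape between the lines. In HL-60 a peak of 2463 bp with a fold enrichment of 4.99 (58888544 to 58891006) was followed by a peak of 887 bp with 9.47 (58891981 to 58892867), the highest fold enrichment of all 81 peaks. In Molm13 the pair of peaks was 414 bp wide with 6.39 and 936 bp wide with 5.99. In OCI-AML3 a single peak of 6045 bp with 3.93 (58888458 to 58894502) reached across both clusters. In K562 the canonical cluster lay in a peak of 5671 bp with 4.05 (58890797 to 58896467), and the upstream cluster was touched by a peak of 271 bp with 2.72, which came within 500 bp of 1 of its 14 TSSs. The GNAS peaks at the canonical cluster stood at the 98.0th percentile in HL-60, the 90.6th in K562, the 80.8th in Molm13 and the 79.4th in OCI-AML3. The canonical TSS itself lay 415 bp from the nearest peak in HL-60 and 666 bp in Molm13, just inside and just outside the 500 bp limit, and inside a peak in the other lines.

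Near the 3′ end of GNAS, 2 further TSS clusters 16.6 and 17.5 kb downstream of the canonical start lay in a region (58907109 to 58909102) that was present in the 3 AML lines. Its fold enrichment was 4.34 in Molm13, 4.23 in HL-60 and 4.87 in OCI-AML3, where it was the strongest GNAS peak and stood at the 93.5th percentile. K562 had no peak there, and its nearest peak was 11514 bp from the first of these clusters. K562 had instead a peak of 370 bp with 2.42 at the start of GNAS-AS1, the antisense transcript of the NESP55 region. That peak ended 2059 bp before the next GNAS cluster, so no GNAS TSS was called marked by it.

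PLAGL1 encodes a zinc finger transcription factor, expressed from the paternal allele and linked to transient neonatal diabetes when overexpressed (chromosome 6, 143940300 to 144064599, - strand). Its imprinted promoter is the CpG-rich one inside the gene, and a distal upstream promoter is known to be active on both alleles in blood cells. In all 4 lines the peak at PLAGL1 lay over the distal cluster of 5 TSSs (144064511 to 144064599), 56.3 kb upstream of the canonical start. It was 1526 bp wide with a fold enrichment of 3.12 in HL-60, 1654 bp with 2.88 in K562, 1664 bp with 4.32 in Molm13 and 1213 bp with 3.24 in OCI-AML3. These peaks stood at the 26.1st, 51.8th, 61.9th and 61.3rd percentiles of their lists in the same order. In HL-60 its q-value was 0.0392, and with q below 0.001 that call was lost.

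The canonical PLAGL1 cluster (144008118 to 144008823, 11 TSSs) was marked in none of the lines. The nearest peak lay 54861 bp from it in HL-60, 874 bp in K562, 9666 bp in Molm13 and 25368 bp in OCI-AML3. The K562 peak (144006076 to 144007244, 1169 bp, fold enrichment 2.56) marked a separate single TSS just downstream of the canonical cluster. K562 also marked a cluster of 2 TSSs 39.3 kb downstream of the canonical start, with a peak of 2479 bp and 2.54. In all, K562 had 8 peaks in the PLAGL1 window, OCI-AML3 7, Molm13 5 and HL-60 3, and the promoter of the neighbouring splicing factor gene SF3B5 accounted for 1 peak in each line, with fold enrichments of 6.49 in HL-60, 3.54 in K562, 6.84 in Molm13 and 3.99 in OCI-AML3. An intronic region (144035609 to 144037188) was shared by Molm13, OCI-AML3 and K562.

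**Figure D2:**
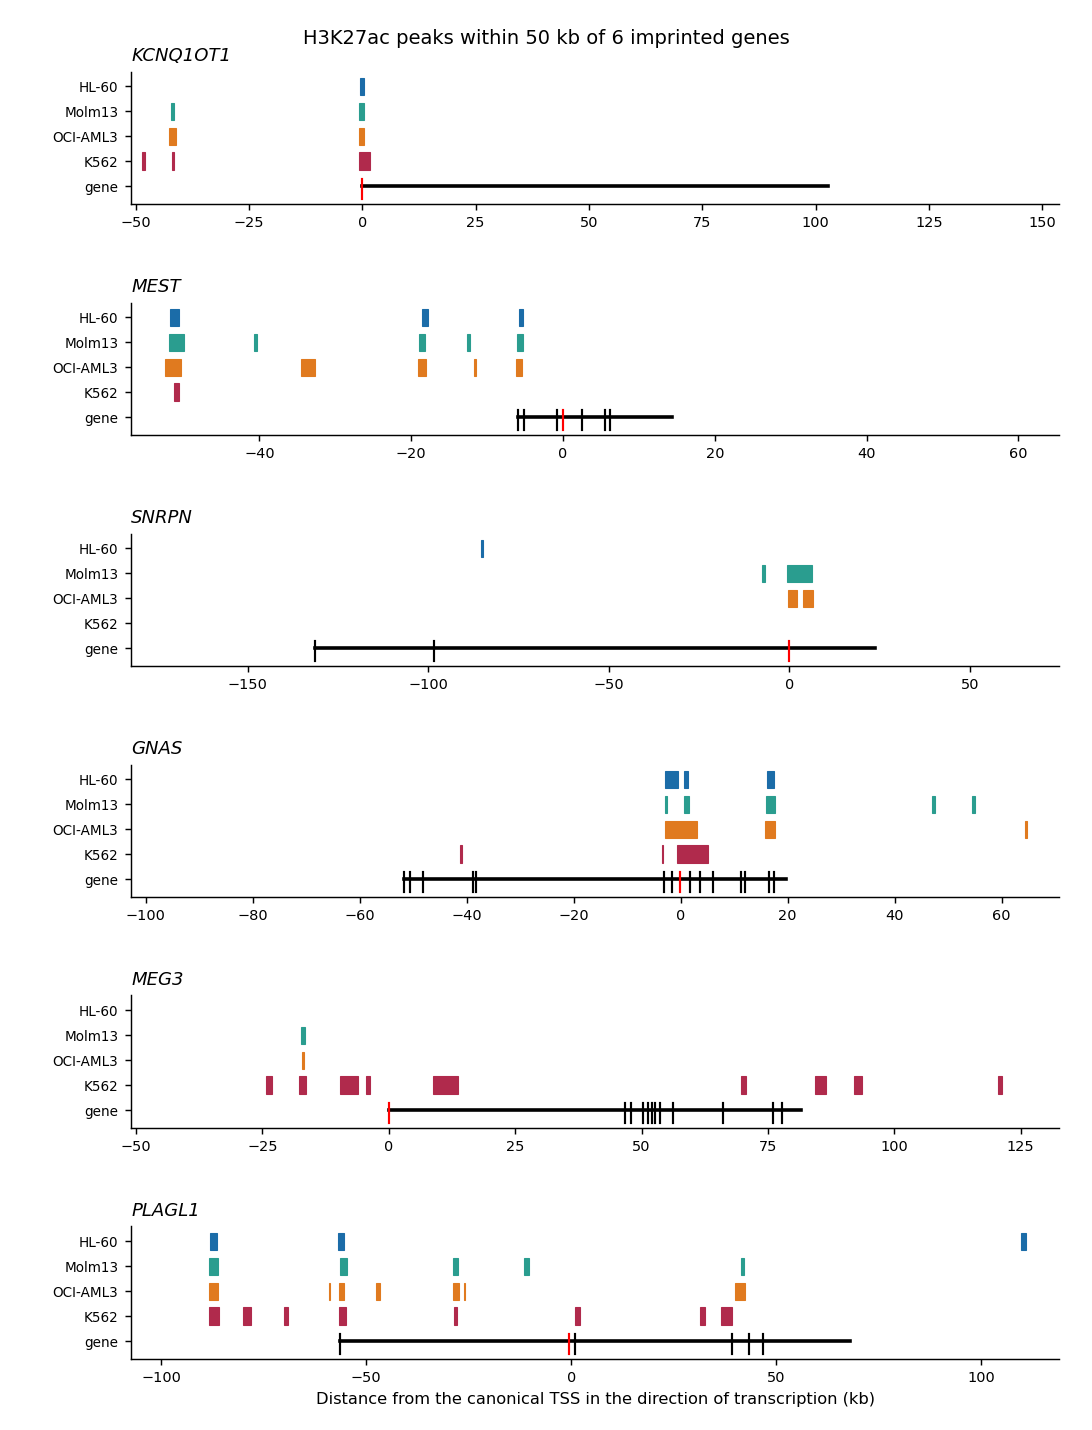
Peaks of the 4 lines (coloured blocks, to scale) around 6 of the genes, by distance in kb from the canonical TSS in the direction of transcription; the black line is the gene, black ticks are TSS clusters and the red tick is the cluster of the canonical TSS. Blocks of all 4 lines stand at the red tick of KCNQ1OT1 and around that of GNAS, none at that of MEST or PLAGL1, blocks of Molm13 and OCI-AML3 at that of SNRPN, and 9 K562 blocks around MEG3.

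MEST encodes a protein of the alpha/beta hydrolase fold, expressed from the paternal allele in mesoderm, and a promoter upstream of the imprinted one is known to be used from both alleles (chromosome 7, 130486171 to 130506465, + strand). In the 3 AML lines the first 2 of the 7 MEST clusters, 5.91 and 5.11 kb upstream of the canonical start, were marked by 1 peak. This peak was 507 bp wide with a fold enrichment of 4.84 in HL-60, 725 bp with 4.47 in Molm13 and 799 bp with 2.11 in OCI-AML3. Its strength thus ranged from the 75.6th percentile in HL-60 and the 64.4th in Molm13 to the 1.10th in OCI-AML3, where the peak was among the weakest of the list. With a q-value of 0.0151, the OCI-AML3 call was lost with q below 0.001 and among the 20772 strongest peaks. The canonical cluster (130492085 to 130492472) had no peak in any line, and the nearest one lay 5247 bp away in HL-60, 50565 bp in K562, 5276 bp in Molm13 and 5371 bp in OCI-AML3.

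In K562 the MEST window held 1 peak, at the promoter of the neighbouring centrosomal gene CEP41, with a fold enrichment of 2.07 at the 0.363rd percentile. The same CEP41 promoter had peaks with 6.27 in Molm13, 4.33 in HL-60 and 3.60 in OCI-AML3. A region upstream of MEST, 11916 to 12253 bp from its first start (130473023 to 130474255) was present in the 3 AML lines with 3.21, 3.32 and 2.82, and was without a peak in K562.

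SNRPN encodes the SmN protein of the spliceosome, shares its promoter with SNURF and starts at the control region of the Prader-Willi and Angelman domain, active on the paternal allele (chromosome 15, 24823637 to 24978723, + strand). Of its 3 TSS clusters, only that of the canonical start (24954935 to 24955005) was marked, and only in Molm13 and OCI-AML3. In Molm13 a peak of 6949 bp with a fold enrichment of 6.34 (24954280 to 24961228) covered the start, and it was wider than 98.1% of the peaks of its list. In OCI-AML3 the same stretch held a peak of 2516 bp with 3.40 over the start and one of 2644 bp with 3.65 further into the gene, at the 66.6th and 73.3rd percentiles. In both lines the acetylated stretch thus ran well into the gene, to 24961228 in Molm13 and 24961494 in OCI-AML3.

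HL-60 had no peak at the SNRPN start. Its only peak in the window was a 600 bp peak with 2.96, in an intron 84950 bp upstream of the canonical start, with a q-value of 0.0764. In K562 the nearest peak to the gene lay 394058 bp away, and only 7.59% of all genes were farther from a K562 peak. The SNRPN locus therefore differed between the lines from a wide promoter domain to no peak at all.

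PEG3 encodes a zinc finger protein expressed from the paternal allele (chromosome 19, 56810077 to 56840728, - strand). It was marked in HL-60, where a peak of 1764 bp with a fold enrichment of 4.12 (56837642 to 56839405, 64.0th percentile) covered 1 internal TSS and began 1321 bp downstream of the canonical start. The canonical cluster of PEG3 was marked in none of the lines. Upstream, Molm13 had 1 peak of 3315 bp with 4.94 and OCI-AML3 had 3 peaks of 736 to 815 bp with 2.54 to 2.68, between 35850 and 41489 bp from the gene. In K562 the nearest peak lay 399874 bp away, and 7.47% of all genes were farther from a peak.

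MEG3 is a maternally expressed lncRNA of the DLK1-DIO3 domain with growth-suppressing functions (chromosome 14, 100779410 to 100861031, + strand). None of its 34 TSSs was marked in any line, yet K562 had 9 peaks in its window, against 1 in Molm13, 1 in OCI-AML3 and 0 in HL-60. The K562 peaks ran from 23157 bp upstream and farther to beyond the 3′ end of the gene and covered 9.5% of the window. The strongest was 3516 bp wide with a fold enrichment of 4.53 (100769756 to 100773271, 6139 bp upstream, 96.6th percentile), and the widest, with 4883 bp and 3.83, lay in an intron (100788190 to 100793072, 86.1st percentile). The remaining 7 K562 peaks of MEG3 had fold enrichments of 2.55 to 3.21. Upstream distances for MEG3 are counted from the canonical start, a single TSS of 1 transcript. The cluster with the most TSSs (13, from 27 of 50 transcripts) starts 46.7 kb downstream of it. The nearest K562 peak lay 22878 bp from that cluster.

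The single peaks of Molm13 (783 bp, fold enrichment 3.92) and OCI-AML3 (456 bp, 2.62) lay in the same region upstream of MEG3, 16617 and 16701 bp from its canonical start (100761638 to 100763074), where K562 also had a peak (1437 bp, 2.85). In HL-60 the nearest peak to MEG3 was 231019 bp away.

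PEG10 is a gene derived from a retrotransposon and expressed from the paternal allele, known for its role in the placenta (chromosome 7, 94656325 to 94669695, + strand). It had no TSS peak in any line. The only peak in its window was in Molm13, 26550 bp upstream, where a peak of 1161 bp with a fold enrichment of 3.36 lay at a start of SGCE, the sarcoglycan gene that shares the imprinted promoter region. In the other lines the nearest peak to PEG10 lay 94568 bp away in HL-60, 145587 bp in K562 and 145495 bp in OCI-AML3.

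H19, a maternally expressed lncRNA (chromosome 11, 1995166 to 2004552, - strand), and IGF2, the paternally expressed insulin-like growth factor (chromosome 11, 2129112 to 2158391, - strand), had no peak within 50 kb in any of the 4 lines. The nearest peak to H19 lay 142106 bp away in HL-60, 220672 bp in K562, 141557 bp in Molm13 and 141608 bp in OCI-AML3. For IGF2 the distances were 142658, 127420, 142662 and 142595 bp in the same order. Both genes are known for sharing enhancers through an insulator that CTCF binds on the maternal allele. The whole stretch from H19 to IGF2, both flanks included, was without a called peak in these lists. Among all genes, 15.4% were farther from a peak than H19 in HL-60, 13% in K562, 11.8% in Molm13 and 12.5% in OCI-AML3.

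**Figure D3:**
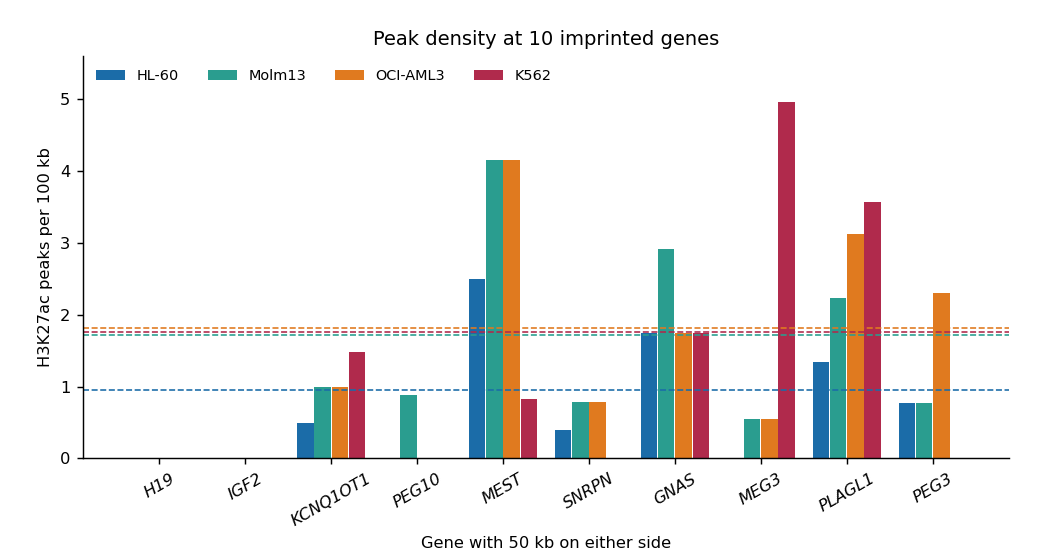
Number of peaks per 100 kb of the gene with 50 kb on either side, for the 10 genes and 4 lines; each dashed line is the median over all genes in the line of that colour. MEST reaches 4.16 in Molm13 and OCI-AML3 and MEG3 4.96 in K562, while H19 and IGF2 have no bar.

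Scaled by window length, the peak density around MEST was 2.49 per 100 kb in HL-60 and 4.16 in both Molm13 and OCI-AML3, at the 78.0th, 79.4th and 78.7th percentiles of all genes, and 0.831 in K562, at the 36.7th. MEG3 ran the other way, with 4.96 per 100 kb in K562, at the 80.4th percentile, and at most 0.551 in the AML lines. The median gene had 0.949 peaks per 100 kb in HL-60, 1.76 in K562, 1.71 in Molm13 and 1.82 in OCI-AML3. The plot of peak densities thus shows H19, IGF2, KCNQ1OT1, PEG10 and SNRPN below the median gene in each line.

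Most peaks at the TSSs of the imprinted genes were at least of median strength for their list. Of the 26 TSS peaks, 20 had at least the median fold enrichment of their list and 4 stood at or above the 90th percentile, 2 of them at GNAS canonical clusters, 1 at the GNAS 3′ clusters and 1 at KCNQ1OT1. Their median fold enrichment was 4.23 in HL-60, 2.80 in K562, 4.47 in Molm13 and 3.59 in OCI-AML3, beside 4.71, 3.41, 5.45 and 3.65 for all peaks at the TSSs of genes in the same lists. Their median width was 1192, 2066.5, 1094 and 1578.5 bp, beside 1219, 2283.5, 1680 and 1869 bp. On both measures the imprinted TSS peaks had the lower median in every line.

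**Figure D4:**
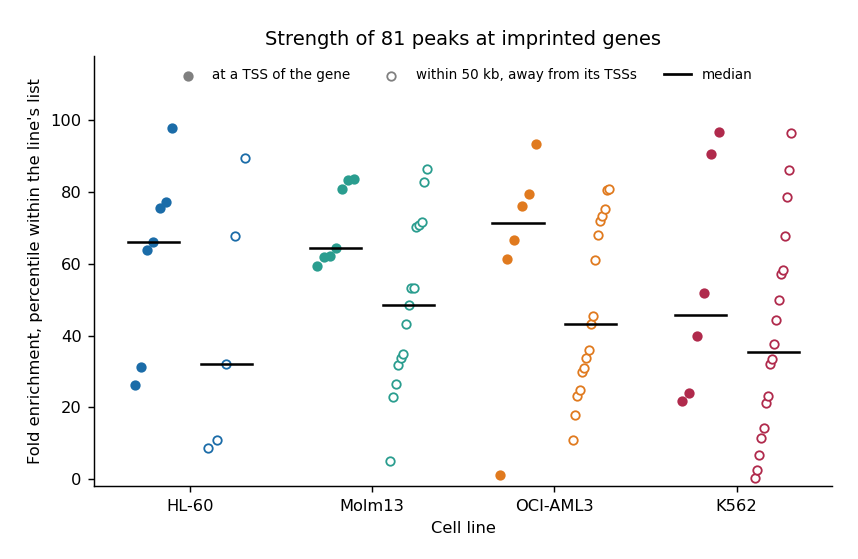
Percentile of fold enrichment within its own list for each of the 81 peaks in the windows of the 10 genes, by line; filled points are peaks at a TSS of the gene, open points peaks within 50 kb and away from its TSSs, and black bars are medians. The median of the TSS peaks is 66.1 in HL-60, 45.8 in K562, 64.4 in Molm13 and 71.4 in OCI-AML3, and in each line it lies above the median of the open points.

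CpG-rich canonical clusters of these genes were found both with and without a peak. The CpG observed over expected ratio relates the number of CpGs to that given by the C and G content. It was measured with 500 bp on either side, around each single TSS over all genes and around each cluster for the imprinted genes. Over all TSSs its median was 0.770 at marked and 0.287 at unmarked TSSs in HL-60, 0.747 and 0.272 in K562, 0.754 and 0.276 in Molm13 and 0.753 and 0.269 in OCI-AML3. For the imprinted genes it was 0.660 over the 15 clusters marked in at least 1 line and 0.377 over the 46 clusters marked in none. These values and those over all TSSs differ in unit and in marking rule, so they are not directly comparable. The 7 canonical clusters marked in none had a median of 0.737, beside 0.837 for the 3 marked ones, with no test.

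Unmarked but CpG-rich canonical clusters were those of PLAGL1 (0.923), IGF2 (0.840), MEST (0.770), PEG10 (0.737) and PEG3 (0.655). The canonical clusters of H19 (0.378) and MEG3 (0.416), of 1 TSS each, were CpG-poor as well as unmarked. This did not hold for all unmarked clusters of these genes. The MEG3 cluster with the most TSSs (13), 46.7 kb downstream of the canonical start, had 0.642, and the other H19 clusters had 0.393 to 0.557. In the sequences printed above, the 250 bases before the unmarked PLAGL1 canonical start hold 32 CpGs, more than the 21 before its marked distal start, and the unmarked and the marked MEST starts hold 20 each. The SNRPN start holds 12, the GNAS upstream start 33, the MEG3 start 13 and the H19 start 4, and the median over all RefSeq promoters was 11.

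**Figure D5:**
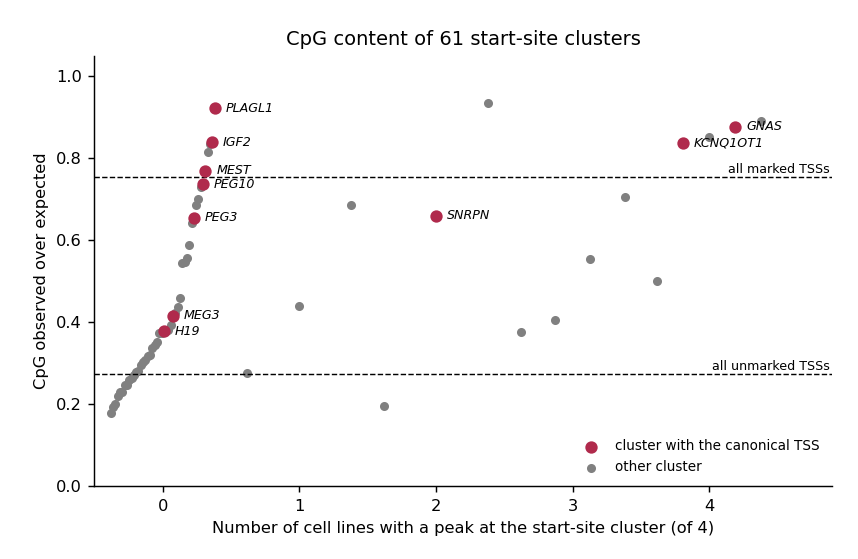
CpG observed over expected ratio of the 61 TSS clusters by the number of lines with a peak there; red points are canonical clusters, named, points are spread sideways within a column, and the dashed lines are median values at marked and at unmarked TSSs of all genes. PLAGL1, IGF2 and MEST stand above 0.75 in the column of 0 lines, beside GNAS and KCNQ1OT1 in the column of 4. The dashed lines rest on single TSSs and the points on clusters.

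Motif letters were searched on both strands in the 300 bases of each RefSeq promoter entry, 250 before and 50 after the start, where matches of different motifs may overlap. The ZFP57 hexamer TGCCGC (reverse GCGGCA), which contains a CpG, was present in 11 of 24 entries of the 6 genes (45.8%) and in 16.7% of all 35116 entries. Some entries of the same gene overlap, so the 24 are not independent. The share over all entries was not matched for CpG or GC content. The hexamer occurred 3 times in the MEST canonical entry, all in the bases after the start, 1 time at the MEST upstream start, 2 times at the SNRPN and 2 times at the PLAGL1 canonical start, 1 time at the MEG3 start, and not in the PLAGL1 distal, GNAS upstream or H19 entry printed. The YY1 core CGCCATNTT (reverse AANATGGCG) was in 0 of 24 entries and in 3.19% of all. The CTCF core, a degenerate motif, was in 1 of 24 (4.17%) and in 5.06% of all.

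Matches to the CTCF core were also counted in the windows of the genes. There were 15 around H19 (13.7 per 100 kb) and 11 around IGF2 (8.51 per 100 kb), against 1.25 per 100 kb over the genome. This genome rate was not matched for GC content. MEG3 had 10 (5.51 per 100 kb), GNAS 7, KCNQ1OT1 8, SNRPN 3, PLAGL1 3, PEG3 2 and PEG10 and MEST 1 each. In the 2 kb searched upstream of the H19 cluster with the most TSSs (11), 3 matches lay 0.503 to 1.309 kb away (2002213 to 2003032). Matches on the same strand at 1999968 and 2000780 lay between that cluster and the H19 cluster with the most transcripts (15, at 1997186 to 1997875). Of the TSS peaks, a CTCF match lay in the PLAGL1 distal promoter peak of all 4 lines and in the HL-60 peak of PEG3, and in the MEG3 window it lay in the 2 strongest K562 peaks. A match shows the letters only, and binding of CTCF, ZFP57 or YY1 was not measured here.

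Further imprinted genes gave a wider view. They were listed by name as imprinted, and whether each is imprinted in these lines was not measured. A peak at one of them is therefore not evidence of acetylation at an imprinted promoter. Of 81 listed, 77 were matched to GENCODE, and a TSS peak was found for 21 in HL-60 (27.3%), 27 in K562 (35.1%), 29 in Molm13 (37.7%) and 30 in OCI-AML3 (39%), beside the shares of all genes given above. In no line were 39 of them marked and in all 4 lines 13, beside 52.3% and 26.6% of all genes. Unmarked in all lines were 7 of the 7 listed genes on chromosome 14 and 10 of 13 on chromosome 7. The counts were 5 of 9 on chromosome 15, 4 of 7 on chromosome 19 and 4 of 14 on chromosome 11. Chromosome 20 had 1 of 6 and chromosome 6 had 1 of 4. The listed genes of a chromosome do not all lie in the domains of the 10 genes, and no share by chromosome was computed over all genes. Some of the marked ones lay near the 10 genes. On chromosome 7, COPG2, a coatomer subunit gene next to MEST, was marked in all 4 lines. On chromosome 11, NAP1L4, a histone chaperone gene, was marked in all 4 lines, PHLDA2 and SLC22A18 in all but HL-60, OSBPL5 in the 3 AML lines, and KCNQ1, the potassium channel gene that hosts KCNQ1OT1, in Molm13 and K562. CDKN1C, the cyclin-dependent kinase inhibitor gene of that domain, was marked in K562 alone, with a fold enrichment of 2.75.

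On chromosome 15, UBE3A, the ubiquitin ligase gene of Angelman syndrome, had a TSS peak in all 4 lines, with fold enrichments of 5.92 in HL-60, 3.78 in K562, 6.41 in Molm13 and 5.73 in OCI-AML3. MKRN3, a paternally expressed gene of the same domain, was marked in HL-60 with 13.9, at the 99.8th percentile, and in K562 with 4.68, at the 97.7th. SNRPN, with SNURF at the same start, was unmarked in just these lines. MKRN3 was unmarked in Molm13 and OCI-AML3, where SNRPN was marked. The pattern of MKRN3 was shared by 97 of all genes (0.249%). ATP10A, on the same chromosome, was marked in Molm13 and OCI-AML3 like SNRPN. MKRN3 is a single gene among the 77 matched, and of the 9 listed genes on this chromosome 5 had no TSS peak in any line. Elsewhere, IGF2R, the receptor that clears IGF2, was marked in all lines except HL-60, and GRB10, RB1 and BLCAP in all 4.

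The K562 list of dCas9 peaks, from cells with 4 guides against LTR2B repeats, had 0 peaks within 50 kb of any of the 10 genes, while 2.65% of all genes had such a peak.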

How the data were processed

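Peak lists of 4 H3K27ac libraries, 1 per cell line, and of 1 dCas9 library of K562 were used, and samples were grouped by their titles. According to the methods of the study, reads were trimmed, aligned to hg38 with Bowtie2 and kept where they mapped uniquely, and the authors called H3K27ac peaks with MACS2 in broad mode at q 0.05. The submitters' processing notes name Trim Galore 0.4.5, Bowtie2 2.3.4, MACS2 2.1.1 and deepTools. The control library used for peak calling is not given in the sources used here. The deposited lists hold each peak's position, the fold enrichment over local background as a ratio, the p-value and q-value of the peak, both on a −log10 scale, and an integer score made from the q-value, and the dCas9 list also holds summit positions. The largest q-value of an H3K27ac list was 0.0947 to 0.0995, and 4 of the 81 peaks described had a q-value above 0.05, none of them at a TSS. Keeping uniquely mapped reads leaves out signal at near-identical copies. Read numbers were not in the lists, so the depth was unknown and no interval could be given.

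Genes, TSSs and canonical transcripts were taken from GENCODE v44 on hg38. Overlaps needed at least 1 bp on chromosomes 1 to 22, X and Y, a TSS was marked when a peak lay within 500 bp, and windows ran 50 kb to either side of the gene body. Coordinates are 1-based. All 10 genes are named. Of the further imprinted genes, up to 25 with a TSS peak were named, and of other genes those with a TSS inside a peak near one of the 10. The members and lists were chosen with earlier results of these data known. With 1 library per line there was no test, and counts were set beside the same counts over all genes. Promoter sequences were those of RefSeq on GRCh38.p14, and all 24 entries found matched hg38. The overlap code was tested on simulated data. Python 3.11.15, pandas 2.3.3, NumPy 2.4.6 and matplotlib 3.10.9 were used. Alternatives covered the q-value limit, list length, TSS window, TSS definition, window size and merging of peaks.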

Additional observations from a re-analysis of the deposited data

How the results depend on the processing

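The counts of genes and TSSs per line were recomputed under other limits on the q-value, list length, TSS window, TSS definition, distance and merging, and 114 of 120 values stayed within 1.5 times. The number of lines that mark each gene gave 80 further values, of which 77 did so. Of the 18 gene and line pairs with a TSS peak, a q-value below 0.001 lost 3 (KCNQ1OT1 and PLAGL1 in HL-60 and MEST in OCI-AML3), and the 20772 strongest peaks of each list, as many as the shortest list holds, lost 1 (MEST in OCI-AML3). With q below 0.001, the marked genes in HL-60 numbered 3. When the peak had to cover the TSS, 26 TSSs were marked in Molm13. With the canonical TSS only, 9 pairs were lost, the marked genes numbered 3 in OCI-AML3, 2 in HL-60 and 2 in Molm13, and MEST, PLAGL1 and PEG3 were marked in 0 lines. Within 10 kb in place of 50 kb, 5 genes had a peak in Molm13. No setting added a pair, but only the wider TSS window and the merging of peaks could have done so. The other settings only remove peaks or TSSs. Under them H19, IGF2, PEG10 and MEG3 had to stay at 0 lines, so their unchanged values say nothing about stability. No paired analysis was possible because each line had 1 library and no test was made. The lists were not brought to equal depth, which was unknown, and a missing peak does not show that acetylation was absent.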
